A study of Homo sapiens with 2 samples.

Results

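BTF3 and NACA encode the beta and alpha subunits of the nascent polypeptide-associated complex, and every transcript model that the deposited table assigns to either gene symbol was taken. This gave 121 of 237608 models, 40 of BTF3 and 81 of NACA, with 6008 of 2871366 reads (0.209%). The genes were picked with earlier results of these libraries in view. They were chosen by the read numbers of their models, above all those of a BTF3 model with an unannotated splice site, so read numbers and shares by model are given here as a description with no test. The choice had no threshold.

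RNA of GM12878, an Epstein-Barr virus transformed human B-lymphoblastoid cell line, was sequenced directly as RNA on the Oxford Nanopore platform, where a native strand enters the pore with its 3′ end and amplification is left out. The 2 libraries form 1 group, replicates 1 and 2, with no treatment and no second line, and the labels do not say whether they came from separate cultures. Both were made from depleted RNA of this line with the SQK-RNA002 kit, and the number of reads was 1360368 in replicate 1 and 1510998 in replicate 2. The 8 B cell markers checked were each read in both libraries, with sums of 11854 and 11837 CPM (counts scaled to an equal total in each library). The 5 markers of other lineages summed to 5.15 and 13.9 CPM, with ALB and GATA1 at 0 reads.

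The nascent polypeptide-associated complex is a heterodimer that binds the ribosome close to the exit of the peptide tunnel. It meets nascent chains as they emerge and limits the binding of the signal recognition particle to chains without a signal sequence. BTF3 was first described as a transcription factor and has a close paralog, BTF3L4. NACA has intronless copies in the genome, and a long splice form with an extra large exon is known from muscle.

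The first splice junction separates the main annotated transcripts of NACA, so its sequence is shown for each. Every line gives the last 15 bases of exon 1 in lower case and the first 15 bases of exon 2 in capitals, 5′ to 3′ on the transcript, from GENCODE release 29 (GRCh38).
NACA-201: cgcgttccctgcacaAAATGCCCGGCGAAG
NACA-202: aggatccagaaaaggAAATGCCCGGCGAAG
NACA-204: cgcgttccctgcacaGCCTCCTTTTTATTC

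BTF3 lies on the plus strand of chromosome 5 from 73498408 to 73505635. Exon 1 of BTF3-201 is wholly untranslated. BTF3-202 has a longer exon 1, and its coding sequence of 618 bases starts 132 bases earlier than the 486 bases of BTF3-201. These 132 bases, 44 codons, are the coding difference between the 2 annotated proteins (chr5:73498668-73498799, plus strand, start codon in capitals).
BTF3-202 exon 1: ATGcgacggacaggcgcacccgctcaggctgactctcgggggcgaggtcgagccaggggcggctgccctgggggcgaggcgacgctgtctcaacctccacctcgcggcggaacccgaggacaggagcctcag

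NACA lies on the minus strand of chromosome 12 from 56712428 to 56731628. NACA-201 and NACA-204 share the end of exon 1 at 56725263, and NACA-202 has another exon 1 that ends at 56724962. NACA-201 and NACA-202 enter exon 2 at 56724523, whereas NACA-204 enters it 26 bases further upstream, at 56724549. In all 3 the start codon is in exon 2 and the coding sequence has 645 bases, so these transcripts differ in their untranslated ends and not in the annotated protein. A same-strand overlap in the annotation exists with PRIM1, with 61 and 39 reads, and with AC117378.1, with 13 and 20 reads, so a small number of reads could have been assigned between these genes.

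**Figure D1:**
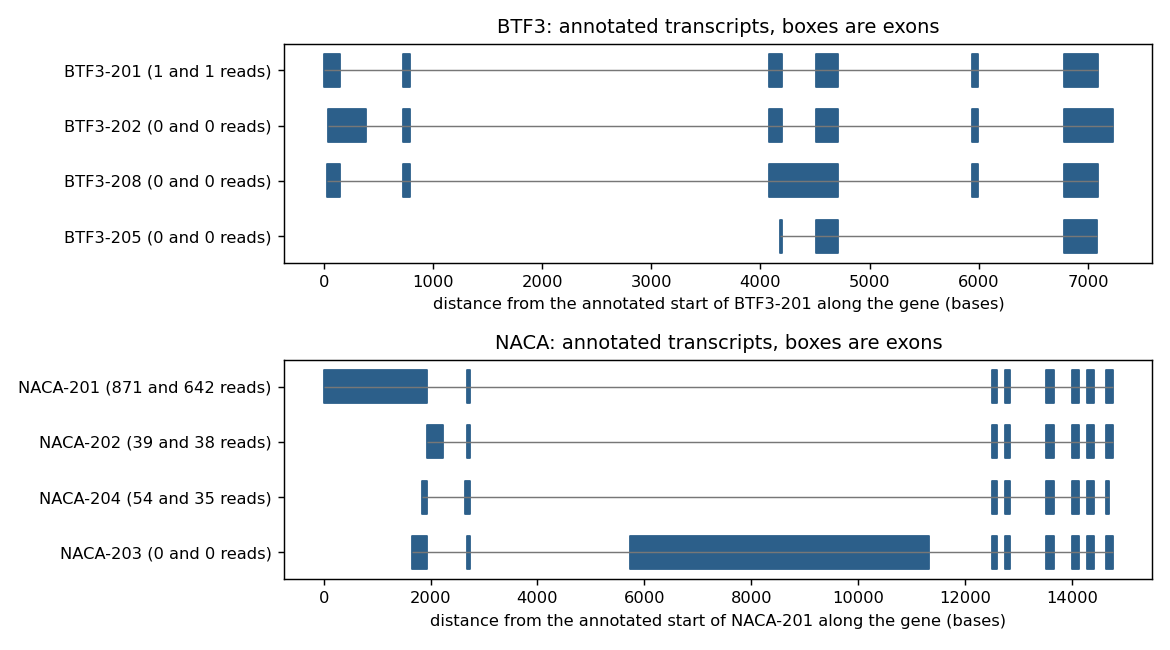
Annotated transcripts of BTF3 (top) and NACA (bottom) as boxes for exons on a line, with the distance in bases from the start of the first transcript on the x axis and the reads of replicates 1 and 2 in brackets. BTF3-201 had 1 read in each library, NACA-201 had 871 and 642, and NACA-203, which carries an exon of 5589 bases, had no read.

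BTF3 was read mostly as 1 unannotated model. Of its 9 annotated transcripts only BTF3-201 was listed, with 1 read in each library, and BTF3-202 had none, which allows up to 3 reads or 2.21 and 1.99 CPM in the libraries in turn. This limit is for reads that reach exon 1, since shorter reads do not separate BTF3-202 from BTF3-201. It is also for the annotated BTF3-202 as a whole, and does not cover unannotated models that may hold its exon 1. The model ENCODEHT000294619, of 6 exons and 841 bases, had 896 reads in replicate 1 and 810 in replicate 2. Its category is NNC, which means that at least 1 of its splice sites is not in the annotation. It held 82.7% of the reads of BTF3 in replicate 1 (95% Wilson interval 80.3 to 84.8%) and 61.6% in replicate 2 (58.98 to 64.2%), with mean 72.2% ± 14.9 (SD, n = 2). The share was lower in replicate 2, and the intervals cover counting error only.

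The deposited length places this model 56 bases below the 897 bases of BTF3-201, which also has 6 exons. GENCODE starts BTF3-201 at 73498408, which is 34 bases upstream of the start that RefSeq gives for the gene (73498442, GRCh38.p14). Counted from the RefSeq start, BTF3-201 would have 863 bases. The table holds no coordinates, so which splice site of ENCODEHT000294619 is unannotated was not determined.

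The other full-length models of BTF3 were sparse. The NIC category combines annotated splice sites in a way no annotated transcript does, and its most read BTF3 model, ENCODEHT000294961, of 6 exons and 1112 bases, had 39 and 70 reads. Among the 957 and 897 reads in models with at least 6 exons, this NIC model held 4.08% and 7.80% and the NNC model of 841 bases 93.6% and 90.3%. The order of these 2 models was therefore the same in both libraries. ENCODEHT000294961 is 215 bases longer than BTF3-201, whose exon 1 has 151 bases beside 351 in BTF3-202. Whether this model holds the longer exon 1 was not determined. The second NNC model, ENCODEHT000294909, of 6 exons and 858 bases, had 5 and 9 reads. With it, the 11 NNC models other than the leading one had 14 and 13 reads together, and 9 of them had 6 exons and 821 to 875 bases, close to the length of the leading model.

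Reads that lacked the 5′ exons made up most of the rest. The ISM category holds models whose junctions are a consecutive part of those of an annotated transcript, and a suffix model is one that keeps the 3′ end. The 3-exon suffix model ENCODEHT000303867 had 50 and 167 reads, and the 4-exon model ENCODEHT000303675 had 12 and 71. The 5-exon model ENCODEHT000303490 had 16 and 62 reads, and the single-exon model ENCODEHT000304133 had 31 and 74. Each of these 4 had more reads in replicate 2 than in replicate 1.

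Most of these lengths were those of the annotated 3′ exons. The 304 bases of the single-exon model equal the last exon of BTF3-201, and the 2-exon model ENCODEHT000304119, with 9 and 15 reads, has the 361 bases of the last exons. The 4-exon models of 677 and 679 bases and the 5-exon model of 748 bases lie within 2 bases of the summed exons. ENCODEHT000303867 did not follow this pattern: its 888 bases exceed the 563 bases of the last 3 exons of BTF3-201 by 325. Intron 3 of BTF3-201 has 314 bases, and BTF3-208, an annotated transcript with no read here, retains it. The deposited length is a single value per model, and no other suffix model of BTF3 has 3 exons. Reads counted in ENCODEHT000303867 therefore need not have its length, and how many retain intron 3 was not determined.

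NACA, unlike BTF3, was led by an annotated transcript. NACA-201, of 8 exons, had 871 reads in replicate 1 and 642 in replicate 2, which were 48.5% (46.2 to 50.8%) and 35.4% (33.2 to 37.6%) of the reads of the gene, with mean 41.9% ± 9.27 (SD, n = 2). NACA-204 had 54 and 35 reads and NACA-202 had 39 and 38. The other 4 of the 7 annotated transcripts with a read had no more than 3 reads in a library, and 14 of the 21 annotated had none.

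The relative shares of NACA-201, NACA-204 and NACA-202 differed little between the libraries. Of the reads in the 3 annotated 8-exon models, NACA-201 held 90.4% and 89.8%, NACA-204 5.60% and 4.90%, and NACA-202 4.05% and 5.31%. In terms of the junction sequences shown above, the large majority of these reads carried the join that ends exon 1 in ctgcaca and opens exon 2 with AAATG. This set of models was chosen after their values were seen.

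The second model of NACA lacked exon 1. ENCODEHT000650205 is a suffix ISM model of 7 exons and 760 bases, 5 bases more than the last 7 exons of NACA-201, and it had 522 and 449 reads. Its share of the gene was 29.1% (27.0 to 31.2%) in replicate 1 and 24.8% (22.8 to 26.8%) in replicate 2. Of the reads in this model and NACA-201 together, it held 37.5% and 41.2%. It was the only ISM model of NACA with at least 100 reads in replicate 1, and, among the ISM models of NACA with at least 50 reads in all, it alone had fewer reads in replicate 2.

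The shorter suffix models were more frequent in replicate 2. ENCODEHT000650207, of 4 exons and 423 bases, had 66 and 180 reads, and ENCODEHT000650203, of 3 exons and 583 bases, had 41 and 134. ENCODEHT000650208, of 5 exons and 920 bases, had 29 and 96 reads, and ENCODEHT000650210, of 6 exons and 688 bases, had 38 and 57. ENCODEHT000650209, of 2 exons and 736 bases, had 5 and 40. Several of them are longer than the same number of last exons of NACA-201, by 211 bases for the 3-exon, 323 for the 5-exon and 493 for the 2-exon model. These are lengths of models and not of reads, so the reads counted in them need not carry the extra bases.

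Annotated NACA transcripts with more or larger exons went unread. NACA-203, whose exon 3 has 5589 bases (chromosome 12, 56715871 to 56721459), and NACA-216, of 11 exons, were not listed in either library. The NACA model with most exons had 9, with 852 bases and a single read, and the longest model outside the annotated ones had 1784 bases and 1 read. At this depth 0 reads allow up to 0.167% of the NACA reads in replicate 1 and 0.165% in replicate 2, for counting error only. This limit is for each annotated transcript as a whole, and does not cover unannotated models that may hold part of the large exon. A read shows that exon only where it reaches exon 3. Whether any 7-exon suffix model, such as one of 1141 bases with 12 and 9 reads, starts within it was not determined.

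**Figure D2:**
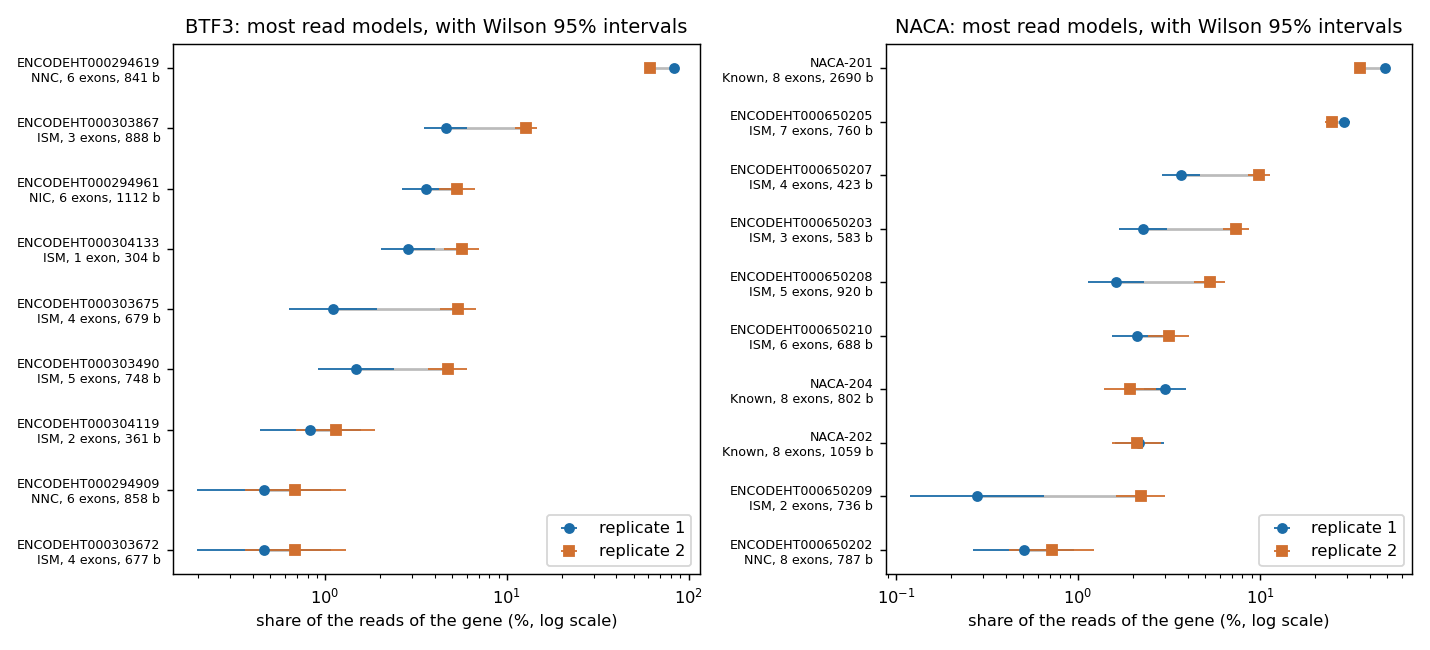
Share of the reads of BTF3 (left) and NACA (right) held by each of their most read models, at most 10 per gene, in percent on a log axis, with Wilson 95% intervals for replicate 1 (circles) and replicate 2 (squares). The leading models, at 82.7% and 61.6% for BTF3 and 48.5% and 35.4% for NACA, are lower in replicate 2, and most ISM models with fewer exons are higher.

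By category, BTF3 and NACA had opposite compositions. NNC models took 83.9% (81.64 to 86.01%) and 62.6% (59.98 to 65.2%) of the BTF3 reads, with mean 73.3% ± 15.1 (SD, n = 2), and known models 0.0923% and 0.0761%. In NACA, known models took 53.7% (51.4 to 56.0%) and 39.7% (37.5 to 42.0%), with mean 46.7% ± 9.89 (SD, n = 2), and NNC models 1.78% and 1.76%. NIC models held 4.34% and 5.56% of BTF3 and 3.40% and 2.43% of NACA. Genomic models, whose reads fall in the gene but fit none of its splicing, had 0 BTF3 reads, which allows up to 0.277% and 0.228%, and 1 and 3 NACA reads.

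Among 922 genes with at least 200 reads in each library, a known leading model, as in NACA, was common and an NNC one, as in BTF3, was rare. The most read model was known in 661 of them, ISM in 110, genomic in 139, NIC in 5 and NNC in 7, BTF3 among these 7. The mean NNC share exceeded 50% in 3 genes: HIST1H2BJ at 93.9%, BTF3 at 73.3% and NDUFS8 at 53.9%. The median over the 922 genes was 2.75%. NACA was below the median share of known models, 62.9% in replicate 1 and 44.5% in replicate 2, and above the median ISM share, 16.0% and 25.6%. This ranking rests on the values by which BTF3 was chosen.

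The genes most like each were found from 10 values per gene, the shares of the 5 categories in each library, by Euclidean distance in percentage points. The 3 nearest to BTF3 were NDUFS8 at 43.7, HIST1H2BJ at 48.2 and PHB2 at 57.5, the smallest distances among 920 other genes. The 3 nearest to NACA were CORO1A at 5.59, EIF3G at 6.10 and NOP53 at 6.89. CORO1A had 52.9% and 36.3% of its reads in known and 40.2% and 58.97% in ISM models.

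**Figure D3:**
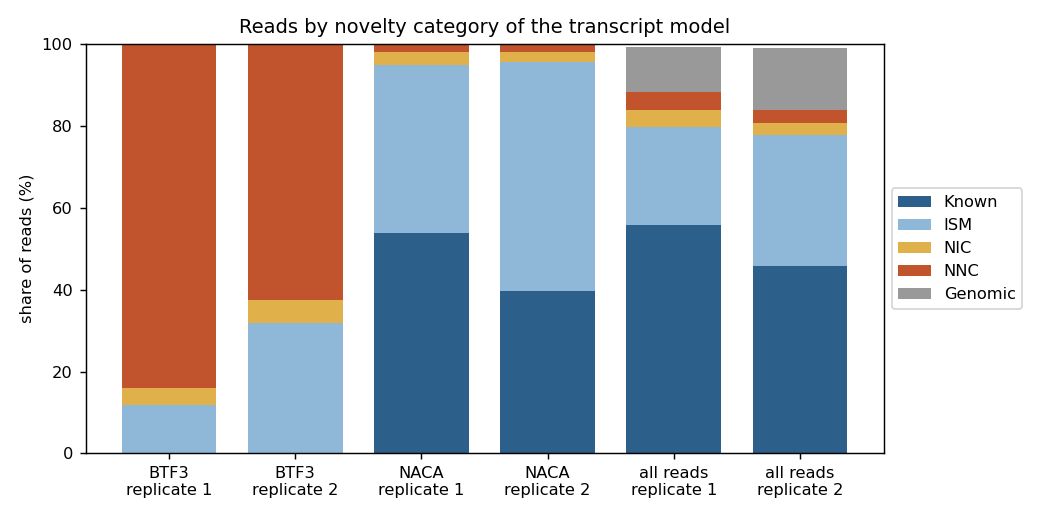
Stacked bars of the share of reads (percent) by novelty category for BTF3, NACA and all reads of each library. BTF3 is almost wholly NNC and ISM, NACA known and ISM, and the ISM part is larger in replicate 2 in each pair of bars.

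The ISM share was larger in replicate 2 than in replicate 1 in both genes. BTF3 had 126 ISM reads (11.6%, 9.85 to 13.7%) in replicate 1 and 417 (31.7%, 29.3 to 34.3%) in replicate 2, with mean 21.7% ± 14.2 (SD, n = 2). NACA had 737 (41.0%, 38.8 to 43.3%) and 1014 (55.9%, 53.6 to 58.2%), with mean 48.5% ± 10.51 (SD, n = 2). The differences were 20.1 and 14.9 percentage points, against 8.12 for all reads. With genomic models left out of the denominator, the difference exceeded that of BTF3 in 160 (20.8%) and that of NACA in 275 (35.8%) of 768 genes with at least 200 such reads in each library. The median difference of these genes was 10.1 points, and 671 of them had a higher share in replicate 2.

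The ISM shares of the 2 genes came close when the 7-exon model was left out of the ISM reads of NACA only. The ISM models of NACA other than ENCODEHT000650205 held 11.97% of its reads in replicate 1 and 31.1% in replicate 2, beside 11.6% and 31.7% for the ISM models of BTF3. The reads of ENCODEHT000650205 stayed in the NACA total. Taken out of it as well, they would leave both NACA shares higher and above those of BTF3. This comparison was chosen after the values were seen, and it has no test.

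The number of exons retained shows the same shift. BTF3 models with at least 6 exons held 88.3% of its reads in replicate 1 and 68.3% in replicate 2, and models with at most 4 exons 10.2% and 26.6%. NACA models with at least 8 exons held 57.3% and 42.9%, 7-exon models 31.9% and 27.0%, and models with at most 4 exons 6.51% and 20.8%. Suffix models, which keep the 3′ end, made up 74.6% and 79.1% of the ISM reads of BTF3, whose single-exon model, of no subtype, held a further 24.6% and 17.7%. In NACA suffix models made up 98.6% and 97.3%. Prefix models, which keep the 5′ end, had 1 and 12 reads in BTF3 and 3 and 13 in NACA.

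**Figure D4:**
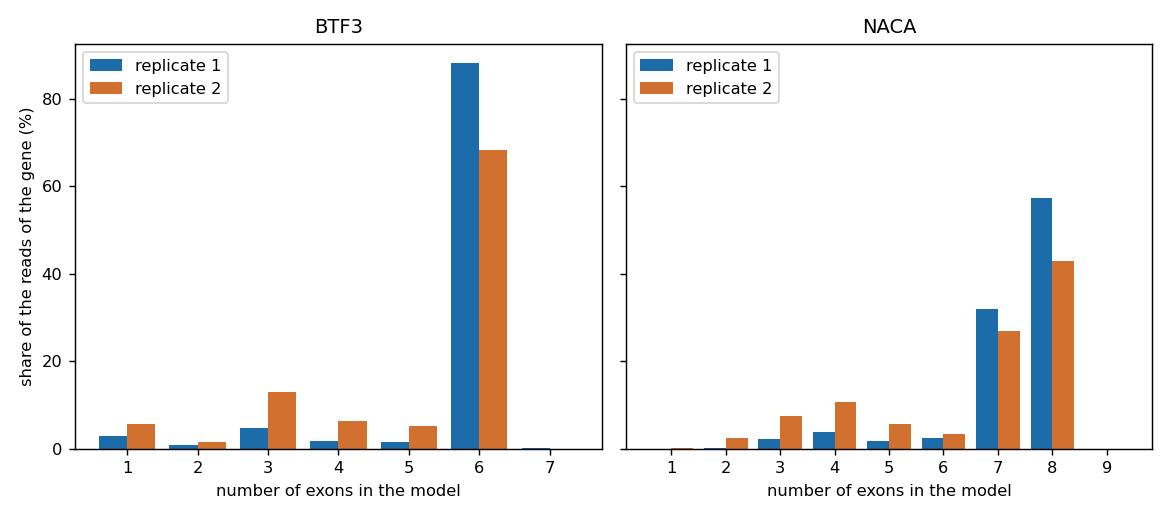
Share of the reads of BTF3 (left) and NACA (right), in percent, by the number of exons of the model, for replicate 1 (blue) and replicate 2 (orange). Models of 6 exons in BTF3 and of 7 and 8 exons in NACA are lower in replicate 2, and models of 2 to 5 exons are higher in both genes.

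The mean length of the models, weighted by reads, was 831 bases in replicate 1 and 807.8 in replicate 2 for BTF3, with mean 819 ± 16.4 (SD, n = 2). For NACA it was 1700.3 and 1416 bases, with mean 1558 ± 201 (SD, n = 2). The NACA value is set by the annotated length of NACA-201, 2690 bases, whose first exon starts 1898 bases upstream of the RefSeq start (56725299). From that start NACA-201 would have 792 bases, and the unannotated 8-exon NACA models with at least 10 reads had 777 to 801. Without known models the mean length of NACA was 752 and 704 bases.

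The totals of both genes were similar in the libraries. BTF3 had 1084 reads (797 CPM) in replicate 1 and 1314 (870 CPM) in replicate 2, with mean 833 CPM ± 51.5 (SD, n = 2). Its log2 ratio of replicate 2 to replicate 1 was 0.13. NACA had 1796 reads (1320.2 CPM) and 1814 reads (1200.5 CPM), with mean 1260.4 CPM ± 84.6 (SD, n = 2), and a log2 ratio of -0.14. BTF3 was thus higher in replicate 2 and NACA in replicate 1, both by little. These totals are sums of the read numbers behind the choice of the genes, so they carry no test.

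The size of these ratios varied with the scaling and with the models counted. The log2 ratio of BTF3 was 0.10 with TMM scaling, 0.14 with DESeq2 size factors and 0.20 when genomic models were left out of every gene and of the library totals, although BTF3 itself has no genomic reads. That of NACA was -0.16, -0.13 and -0.07 in the same order, and -0.29 with known models only, which also changes the reads of NACA that are counted. The signs were the same in each of these.

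Copies of the 2 genes took few reads. BTF3L4, the expressed paralog of BTF3 on chromosome 1, had 60 and 63 reads, 42.9 CPM ± 1.71 (SD, n = 2), and its annotated transcript BTF3L4-201 had 26 and 19. The intronless NACA2 on chromosome 17 had 4 and 8 reads, NACA3P had 8 and 11, and NACA4P had 3 and 0. The BTF3 pseudogenes BTF3P4 and BTF3P10 had 1 read each, in replicate 1, and BTF3L4P2 had 0 and 9 reads. Of these 7 genes 3 had the 10 reads needed for the test, and 0 passed it at an adjusted p of 0.05, with 0 at an unadjusted p under 0.05, beside 5.05% of all 10634 genes tested (two-sided exact binomial test of the gene total between the libraries, Benjamini-Hochberg adjusted). This test compares 2 libraries and not conditions.

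How far a long read can tell the copies apart depends on their sequence. Over the 486 coding bases of BTF3-201, identity was 74.5% with BTF3L4-201, 94.1% with BTF3P4 and 94.9% with BTF3P10. Over the 645 coding bases of NACA-201 it was 94.4% with NACA2, 94.6% with NACA3P and 93.8% with NACA4P. The first 60 bases of the longest wholly coding exon of NACA are shown beside the best ungapped match in NACA2, with the bases that differ in capitals (GENCODE release 29, GRCh38). NACA is chr12:56713624-56713683, minus strand, in exon 5 of NACA-201, and NACA2 is chr17:61590887-61590946, minus strand.
NACA: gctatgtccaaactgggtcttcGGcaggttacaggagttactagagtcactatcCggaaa
NACA2: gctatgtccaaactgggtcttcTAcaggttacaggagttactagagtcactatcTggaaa

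NACA and NACA2 differ at 3 of these 60 bases. The assignment of reads between NACA and its near-identical copies is uncertain in both directions. NACA2, NACA3P and NACA4P together had 15 reads in replicate 1 and 19 in replicate 2, and how many of their reads were assigned to NACA was not measured.

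Other factors that meet the nascent chain or its ribosome were taken from a list of 34 genes. Of its 35 gene identifiers (HSPA14 has 2), 33 had at least 10 reads, and 5 passed the exact binomial test at an adjusted p of 0.05, 1 higher and 4 lower in replicate 2, beside 2.72% higher and 2.33% lower of all genes tested. Genes with few reads pass less easily, and with a minimum of 50 reads 5 of 28 listed identifiers passed, beside 587 of 6105 genes. The median log2 ratio of the 33 was -0.13, beside 0.01 for all tested. The list was chosen with earlier results of these libraries known.

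The signal recognition particle, which carries ribosomes with a signal sequence to the membrane, held 2 of the 5. SRP14 and SRP9 encode partner proteins of its Alu domain. SRP14 had 653 and 532 reads (480.0 and 352 CPM), a log2 ratio of -0.45 (adjusted p = 1.03e-05, exact binomial test), and SRP9 had 141 and 289 reads (104 and 191 CPM), a log2 ratio of 0.88 (adjusted p = 1.20e-07). The 2 partners thus moved in opposite directions. The call for SRP9 was lost without genomic models, when 38 and 70 reads remained (log2 ratio 0.79, adjusted p = 0.0584, exact binomial test). With known models only, which also leaves genomic reads out, it passed on 36 and 68 reads (log2 ratio 1.04, adjusted p = 0.00397, exact binomial test).

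The other 3 were lower in replicate 2. NAA10, the catalytic subunit of an N-terminal acetyltransferase that acts on nascent chains, had 153 and 98 reads (log2 ratio -0.79, adjusted p = 0.00109, exact binomial test), and HYPK, its regulator, had 86 and 46 (-1.05, adjusted p = 0.00227). PFDN6, a subunit of the prefoldin chaperone, had 103 and 63 reads (-0.86, adjusted p = 0.00618). HYPK overlaps SERF2 on the same strand, with 1183 and 1794 reads, and NAA10 overlaps ARHGAP4, with 72 and 95, so their totals are uncertain. PFDN5, of the same chaperone, had 501 and 577 reads, and the translocon genes SEC61B and SEC61A1 had 405 and 409 and 349 and 321, none past the threshold.

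The ISM share was tested in the 28 listed identifiers with at least 20 known, ISM, NIC or NNC reads in each library. It was higher in replicate 2 in 26, and 9 of these passed, 0 in the other direction, beside 38.2% higher and 0.0607% lower among 4940 genes (Fisher's exact test per gene, Benjamini-Hochberg adjusted). The share in SEC61A1, the channel subunit of the translocon, rose from 66.2% to 92.5% (adjusted p = 4.47e-16, Fisher's exact test), in SRP54, the subunit that binds signal sequences, from 47.6% to 78.7% (adjusted p = 0.00106), and in SRP14 from 5.04% to 14.1% (adjusted p = 6.43e-06). The other 6 were PFDN5 (1.20% to 5.89%), SRP68, a further protein of the signal recognition particle (40.9% to 65.4%), the myristoyltransferase NMT1 (54.1% to 69.3%), SEC61B (18.3% to 26.9%), the methionine aminopeptidase METAP2 (57.1% to 77.1%) and NAA10 (3.31% to 11.8%). SRP54, SRP68, NMT1 and METAP2 were named after their values were seen. The median difference was 9.27 percentage points in the list and 13.3 in all genes tested. The values of BTF3, 11.6% and 31.7%, and of NACA, 41.1% and 56.0% on this denominator, lie beside these with no test of their own.

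**Figure D5:**
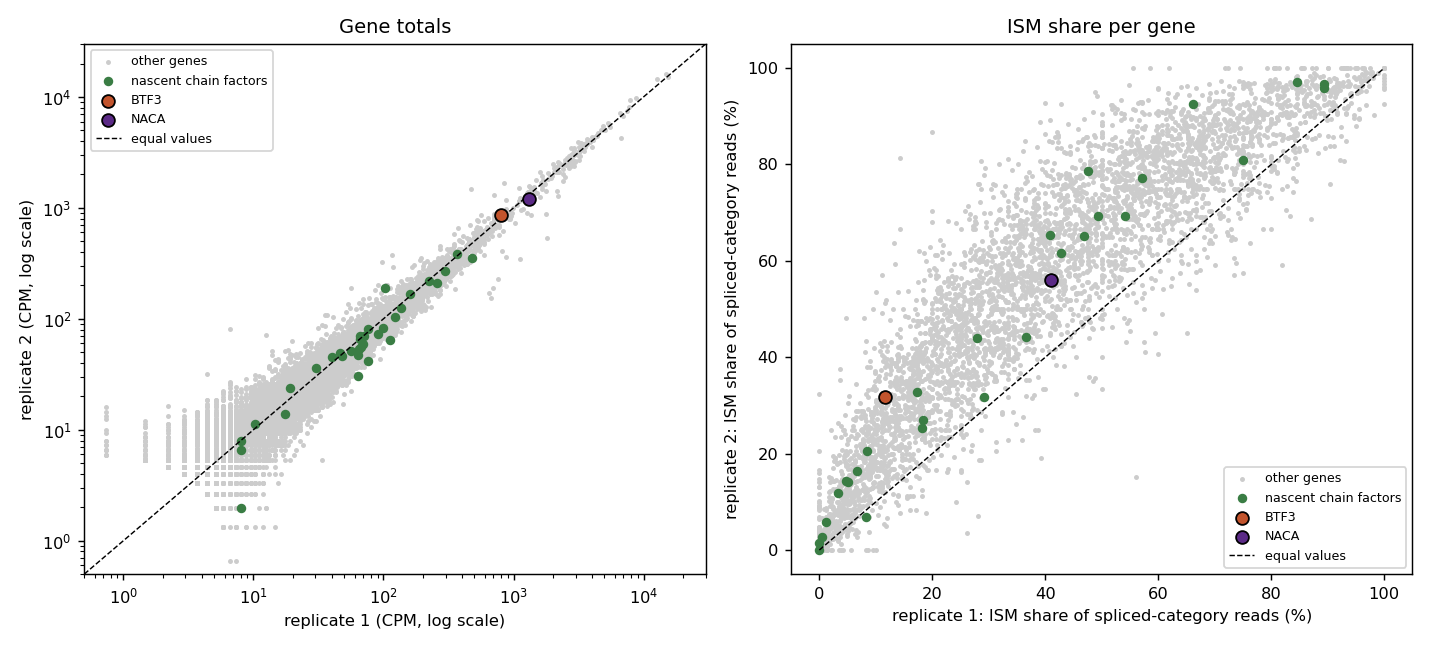
Replicate 2 against replicate 1 for all genes tested, as gene totals in CPM on log axes (left, genes at 0 in a library not drawn) and as the ISM share of reads in known, ISM, NIC and NNC models in percent (right), with BTF3, NACA and the listed nascent chain factors coloured and a dashed line of equal values. BTF3 (797 and 870 CPM) and NACA (1320.2 and 1200.5 CPM) lie near the line on the left and above it on the right.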

How the data were processed

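Raw counts of reads per transcript model, made with the TALON program, were deposited by the authors as 1 table, whose library columns were matched to samples by title. The number of exons and of bases of each model, other properties, were deposited in the same table. Alignment with minimap2 and build hg38 are named per the submitters' processing notes; versions, filters and annotation release are not given in the sources used here. All 23533 known models matched GENCODE release 29 (GRCh38) in identifier, exon number and length, so positions were taken from it.

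Gene totals summed all models of an annotated gene. Libraries were compared by exact binomial tests on genes with at least 10 reads, with 0.5 reads added for log2 ratios, and ISM shares by Fisher's exact tests (scipy 1.17.1). Both were run on simulated counts with counting error only, which do not hold the spread between real libraries. TMM (edgeR 4.0.16) and DESeq2 1.42.0 scaling were alternatives. With 1 group, no model between groups could be fitted. The p-values set the difference between these libraries against counting error only, without the spread between replicates. That difference may be technical. Intervals and the limit of 3 reads cover counting error only. Named models have at least 10 reads, at most 10 per gene, or lead their category; listed genes are the 4 most abundant and those past the threshold for gene totals. The members and lists were chosen with earlier results of these data known.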

Additional observations from a re-analysis of the deposited data

How the results depend on the processing

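No paired analysis was possible because both libraries belong to the same group. The log2 ratio of the BTF3 total was 0.20 without genomic models, and that of NACA -0.16 with TMM scaling and -0.29 with known models only; BTF3 has 2 known reads and could not be fitted there. Apart from these totals, from values with a replicate left out and from BTF3 values without genomic models, of which it has none, 32 of 35 alternative values stayed within the spread of the replicates or, for counts, within 1.5 times. For NACA, leaving out genomic models and leaving out single-exon models drop the same model, with 1 and 3 reads. These values among the 35 could hardly move. Nor could the shares and lengths of either gene from models with at least 5 reads. Models with at least 10 reads already hold 98.0% of the BTF3 reads and 95.9% of the NACA reads. The 32 of 35 therefore says little about stability. With known models only, 1042 of 5528 genes passed, 324 higher and 718 lower, in place of 537 of 10634, and 8 listed nascent chain factors in place of 5; fewer reads and genes remain there. Without genomic models 723 genes passed, 300 higher and 423 lower, in place of 289 and 248. The mean model length of BTF3 was 842 bases with models of 2 or more exons, which drops its single-exon model. With either replicate left out, the single remaining value must fall inside the SD of the pair, so these values do not bear on stability. The ranges were 61.6 to 82.7% for the most read model of BTF3 and 35.4 to 48.5% for that of NACA.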
